A study of Mus musculus with 12 samples.

Results

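Of the miRNAs counted in the CA1 subfield of the mouse hippocampus, 17 rows of 495 named rows belong to the miRNA genes that lie on the Meg3 and Rtl1 antisense side of the imprinted Dlk1-Dio3 locus. They were chosen by name, as every arm, letter or copy of miR-127, miR-136, miR-337, miR-431, miR-433, miR-434, miR-540, miR-665, miR-673 and miR-770. Of these 10 genes, 9 had a row, and miR-665 had none in the miRNA table used here. Kat2a cKO mice carried Kat2afl/fl alleles with CamKIIα-cre+ (n = 6 libraries), and Control mice carried the floxed Kat2afl/fl alleles without Cre (n = 6 libraries). All mice were C57BL/6J, aged 3 to 5 months, and the design text calls the cKO mice naïve. The CamKIIα promoter drives Cre in forebrain excitatory neurons, so glia, vessels and other cells of the dissected tissue are not targeted. Presence of Cre and loss of Kat2a cannot be told apart in this design, since no group carried Cre alone. The labels do not say that each library came from a different mouse, so p-values measure the spread between these samples.

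Kat2a transfers acetyl groups to histones as part of large coactivator complexes that act at promoters. The Dlk1-Dio3 locus is imprinted: in the mouse its non-coding RNAs, Meg3 among them, are expressed from the maternal chromosome, and the protein-coding genes Dlk1, Rtl1 and Dio3 from the paternal one. The miRNAs antisense to Rtl1 are cut from a maternal transcript and match the Rtl1 messenger RNA without a mismatch, and they are known to direct its cleavage. The locus is highly active in brain. In tissue RNA, fewer cells of a type and less RNA per cell cannot be told apart.

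The 10 hairpins lie on the plus strand of mouse chromosome 12 in GRCm38.p6 (RefSeq positions, GENCODE M21 gene models). Mir770 (109563692 to 109563785) lies inside Meg3, in an intron of 3 of the 4 Meg3 transcripts that span it and in an exon of the other. Mir673 begins 264 bases after the end of Meg3. Mir337, Mir540 and Mir665 lie between Meg3 and Rtl1. Mir431, Mir433, Mir127 (109592846 to 109592915), Mir434 and Mir136 lie in the coding exon of Rtl1, which runs on the minus strand (109589193 to 109600330). For each gene with a row in the miRNA table, the mature sequence of its row with the most reads is printed, with the other arm of miR-136 and miR-337 beside it. The sequences are from RefSeq, in genome order, 5′ to 3′, with the seed (bases 2 to 8, the part that pairs with targets) in capitals. Of miR-540 the 5p arm alone has a row, so its arms were not compared.
miR-770-5p: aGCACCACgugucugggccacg
miR-673-5p: cUCACAGCucugguccuuggag
miR-337-5p: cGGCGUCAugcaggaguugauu
miR-337-3p: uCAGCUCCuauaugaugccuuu
miR-540-5p: cAAGGGUCacccucugacucugu
miR-431-3p: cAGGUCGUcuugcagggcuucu
miR-433-3p: aUCAUGAUgggcuccucggugu
miR-127-3p: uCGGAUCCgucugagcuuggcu
miR-434-3p: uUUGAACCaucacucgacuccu
miR-136-5p: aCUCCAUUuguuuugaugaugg
miR-136-3p: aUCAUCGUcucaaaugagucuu

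All 17 rows matched a RefSeq mature sequence; the files use older names, in which miR-127 and miR-433 are the 3p arms, miR-136 and miR-431 the 5p arms, and a star marks the other arm. The 17 rows carried 17 different seeds, so no pair of members shares its seed. Among the members, miR-673-5p alone shares its seed with another mature miRNA of the RefSeq table, miR-6985-3p. The reverse complement of each of the 10 rows from the Rtl1 side was found without a mismatch in the Rtl1 transcript, within its coding region, and that of none of the 7 rows from the Meg3 side. Counted from the transcript's 5′ end, the site of miR-127-3p covers bases 2642 to 2663 and that of miR-136-5p bases 199 to 220. GC content of the mature sequences ran from 36.4% in both arms of miR-136 to 72.7% in miR-770-3p.

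The miRNA table held 2449121 to 10116062 counts for each library, and 1119938 to 4464600 were in that of all RNAs. Of the miRNA rows, 494 passed the count filter, the 17 members among them. The targeted gene Kat2a gave 13 reads over the cKO libraries and 23 over the Control libraries; these reads are not tied to the deleted part, so they do not check the labels. The 15 rows of neuronal miRNAs, among them miR-9 and miR-128, summed to 58309.9 to 67422 CPM in cKO libraries and 56790.1 to 78271 CPM in Control libraries. miRNAs of other cell types were detected too, with ranges that overlapped between the groups. Oligodendrocyte miRNAs (5 rows) were at 2571 to 4052 CPM in cKO and 2559 to 4369 CPM in Control. Vascular miRNAs (6 rows) were at 16103 to 23119 CPM in cKO and 13792 to 22083 CPM in Control. Red blood cell miRNAs (4 rows) were at 6029 to 18183 CPM in cKO and 3655 to 17907 CPM in Control. Microglia and leukocyte miRNAs (8 rows) were at 3118 to 4647 CPM in cKO and 2775 to 3634 CPM in Control. Choroid plexus and epithelial miRNAs (7 rows) were at 3150 to 7606 CPM in cKO and 2797 to 7185 CPM in Control.

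The members spanned more than 4 orders of magnitude. Levels are CPM, counts divided by the TMM-scaled total of the library's miRNA counts and put on the usual common scale. All 17 mature RNAs are 21 to 23 bases long, so no length correction was made. How many reads a molecule of each sequence yields was not measured, so the order of the members is one of reads. Over the 12 libraries miR-127 had the highest mean level of all tested miRNAs, 143386 ± 25611 CPM (SD, n = 12). miR-434-3p was the 5th of them at 36591 ± 10239 CPM, and miR-136* the 32nd at 5886 ± 1469 CPM. These levels do not overlap between miR-127, miR-434-3p, miR-136* and miR-434-5p (2059.6 ± 459 CPM) in any pair of libraries. Below them miR-434-5p and miR-136 (1622 ± 599 CPM) overlapped, as did miR-136 and miR-433 (959.9 ± 417 CPM). Of the other rows antisense to Rtl1, miR-127* was at 250 ± 82.5 CPM, miR-431* at 104 ± 14.4 CPM, miR-431 at 75.2 ± 9.19 CPM and miR-433* at 47.8 ± 6.10 CPM. On the Meg3 side miR-673-5p, the most abundant, lay below miR-433 in all 12 libraries and overlapped miR-127*: it reached 337 ± 69.1 CPM. miR-673-3p had 102 ± 22.9 CPM and overlapped miR-431*. The arms of miR-770 overlapped each other, with miR-770-5p at 43.5 ± 9.25 CPM and miR-770-3p at 41.7 ± 12.9 CPM. miR-337-3p had 17.0 ± 4.19 CPM. miR-540-5p at 4.62 ± 1.45 CPM and miR-337-5p at 3.86 ± 1.19 CPM overlapped, with as few as 4 counts in a library for miR-540-5p and 6 for miR-337-5p.

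**Figure D1:**
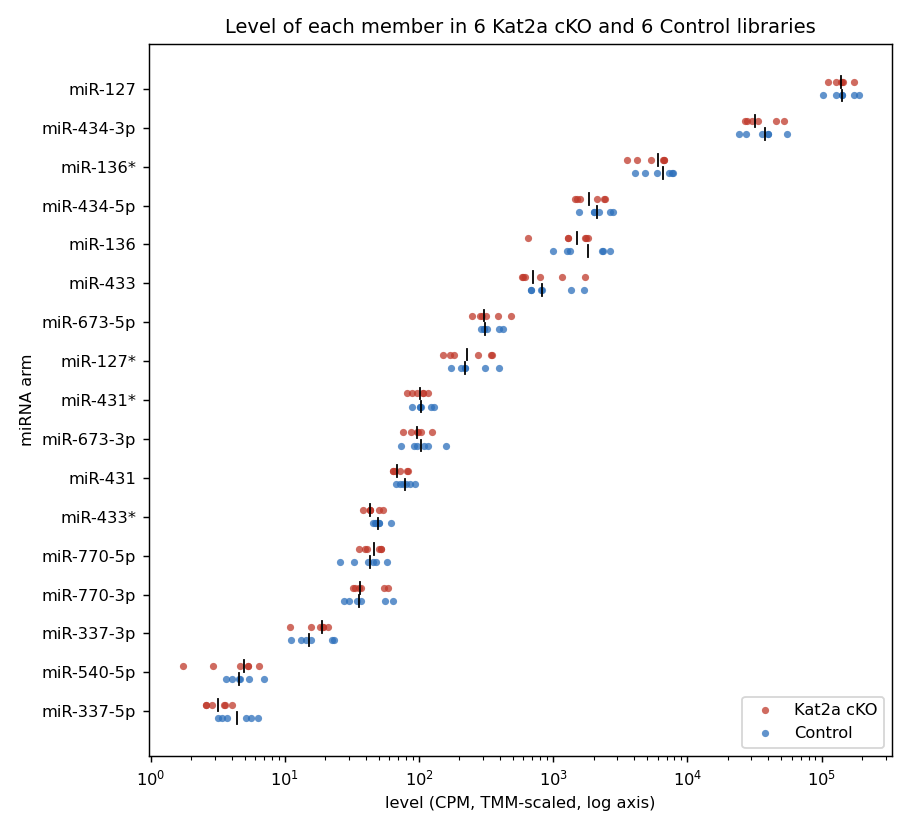
Level of each of the 17 miRNA arms in CPM on a log axis, 1 point per library, Kat2a cKO above Control in each row, with a bar at each group's median. The groups overlap in every row, and the order runs from miR-127 at 143386 CPM on average to miR-337-5p at 3.86 CPM.

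Members held 18.9 ± 2.25% of miRNA counts in cKO libraries and 19.2 ± 2.66% in Control libraries (SD, n = 6 each). miR-127 alone held 14.2 ± 1.80% in cKO and 14.4 ± 2.25% in Control. The 7 rows of the Meg3 side together held 0.0550 ± 0.0085% in cKO and 0.0545 ± 0.0063% in Control.

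The comparison of Kat2a cKO with Control asks whether loss of the acetyltransferase in excitatory neurons changes these miRNAs. No member passed the test: 0 of 17 had an adjusted p under 0.05 (edgeR, smallest adjusted p = 0.997; DESeq2, 0 of 17), against 0.202% of all tested miRNAs. At an unadjusted p under 0.05 the count was also 0 of 17, against 4.25% of all tested miRNAs. In all 17 rows the cKO and Control libraries overlapped; the groups do not overlap in 0.405% of tested miRNAs. The fitted level was lower in cKO for 14 of 17 members and higher for 3, with a median log2 fold change of -0.12. Over all 494 tested miRNAs 50.8% were lower, with a median of -0.0022, and over the 60 tested rows of the other Dlk1-Dio3 miRNAs 49 were lower, with a median of -0.15. Of the lists of other miRNAs, 12 of 15 neuronal rows were lower (median -0.044) and 4 of 5 oligodendrocyte rows were lower (median -0.24). All 4 red blood cell rows were higher (median 0.30, 1 with an unadjusted p under 0.05). Lower fitted levels were also found for 2 of 6 vascular rows (median 0.12) and 3 of 8 microglia and leukocyte rows (median 0.059). Of the choroid plexus and epithelial rows 3 of 7 were lower (median 0.13). No row of these lists had an adjusted p under 0.05. The part of these lists in the members' values was not tested. The 95% intervals of the members' log2 fold changes lay between -0.96 and 0.53.

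Among the miRNAs antisense to Rtl1, all 10 rows were fitted lower in cKO, none past the test, and the median log2 fold change was -0.14. miR-127 had a lowest, median and highest level of 111364, 140164 and 175495 CPM in cKO libraries, against 103023, 141832 and 189169 CPM in Control libraries. The Control libraries held both the lowest and the highest value, and the medians lay close together. Its log2 fold change was -0.064 ± 0.15 (SE). miR-434-3p, which like miR-127 is cut from the strand opposite Rtl1, had 26953, 32045 and 52115 CPM in cKO libraries, against 24122, 37995 and 55324 CPM in Control libraries, a log2 fold change of -0.042 ± 0.22. Here too the cKO values fell inside the Control range. Its 5p arm had a log2 fold change of -0.20 ± 0.18.

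Both arms of miR-136, the hairpin nearest the 5′ end of the Rtl1 coding region, were among the members with the lowest fitted values. miR-136* had 3539, 6006 and 6659 CPM in cKO libraries (lowest, median, highest), against 4047, 6617 and 7798 CPM in Control libraries, a log2 fold change of -0.19 ± 0.21. miR-136 had 644, 1508 and 1827 CPM in cKO libraries, against 997, 1824 and 2655 CPM in Control libraries, a log2 fold change of -0.36 ± 0.28. For each arm the lowest library was cKO 3, and the 3 highest were Control 4 to 6. cKO 4 to 6 came next, above the other cKO libraries and Control 1 to 3. cKO 1 and 2 lay among Control 1 to 3.

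miR-433 had 586, 703 and 1712 CPM in cKO libraries, against 679, 820.1 and 1695 CPM in Control libraries, a log2 fold change of -0.14 ± 0.31. In each group 2 libraries lay above the rest, cKO 1 and 3 and Control 1 and 2. miR-431*, from a hairpin whose 5p arm is known to promote axon growth in mouse sensory neurons, had 81.6, 102 and 117 CPM in cKO libraries, against 88.5, 103 and 130 CPM in Control libraries, a log2 fold change of -0.11 ± 0.14. The other rows of this side, miR-431, miR-433* and miR-127*, had log2 fold changes of -0.14 ± 0.13, -0.16 ± 0.13 and -0.049 ± 0.26.

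On the Meg3 side the fitted level was lower in cKO for 4 of 7 rows and higher for 3, and the median log2 fold change was -0.0068. miR-770-5p, from inside Meg3, had 35.7, 45.8 and 52.4 CPM in cKO libraries, against 25.9, 43.2 and 57.6 CPM in Control libraries, a log2 fold change of 0.12 ± 0.19. Its 3p arm had 0.016 ± 0.24, and -0.013 when the summed miRNA and misc RNA counts set the scaling. miR-673-5p had 249, 305 and 487 CPM in cKO libraries, against 287, 312 and 419 CPM in Control libraries, a log2 fold change of -0.0068 ± 0.17. The cKO libraries held the lowest and the highest value. miR-673-3p had a log2 fold change of -0.14 ± 0.18.

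miR-337-5p, the member with the lowest mean level, had the smallest p. It had 2.59, 3.18 and 4.00 CPM in cKO libraries, against 3.16, 4.41 and 6.29 CPM in Control libraries. All 6 cKO libraries lay below the Control mean, and 3 of them above the lowest Control library. Its log2 fold change was -0.44 ± 0.22 (edgeR, unadjusted p = 0.061, adjusted p = 0.997). The exact two-sided permutation test on log2 CPM gave an unadjusted p = 0.045 (n = 6 each). That p is given for this member alone, picked for its smallest p. The share of all tested miRNAs under 0.05 by that test is not given, so no result is drawn from it. Its counts were 6 to 38 per library. The other arm, miR-337-3p, had 10.9, 18.8 and 21.0 CPM in cKO libraries, against 11.1, 15.001 and 23.1 CPM in Control libraries, a log2 fold change of 0.059 ± 0.21, and -0.00039 when the summed miRNA and misc RNA counts set the scaling. miR-540-5p had 1.73, 4.94 and 6.42 CPM in cKO libraries, against 3.66, 4.58 and 7.03 CPM in Control libraries, a log2 fold change of -0.12 ± 0.26.

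**Figure D2:**
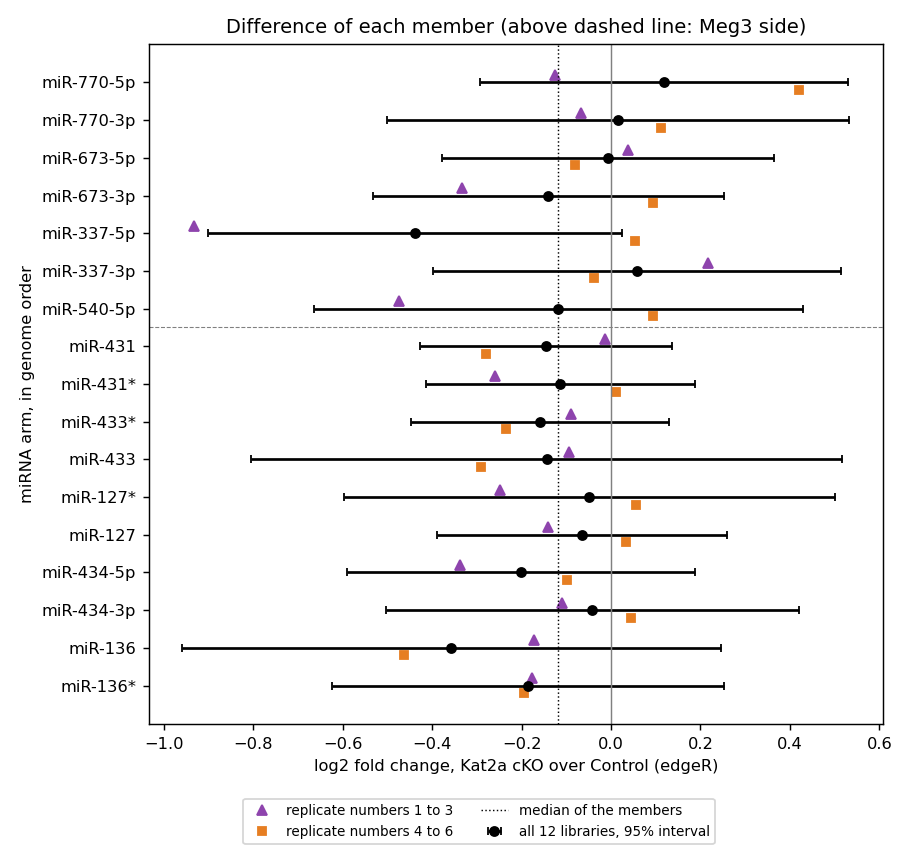
Log2 fold change of each member, Kat2a cKO over Control, in genome order, with 95% intervals from all 12 libraries (circles), and the values from replicate numbers 1 to 3 (triangles) and 4 to 6 (squares) alone. All 17 intervals include 0; the dotted line marks the members' median of -0.12.

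Each group holds replicate numbers 1 to 6, and the labels name no batch. Both arms of miR-136 were higher in each library numbered 4 to 6 than in any numbered 1 to 3, in both groups. miR-136 had 1718 to 2655 CPM in numbers 4 to 6 and 644 to 1327 CPM in numbers 1 to 3, and miR-136* had 6628 to 7798 CPM in numbers 4 to 6 and 3539 to 5887 CPM in numbers 1 to 3. For the other 15 members the ranges of the number sets overlapped; over all tested miRNAs they did not overlap in 11.3%. Within the number sets the comparison of the groups gave different values. In numbers 1 to 3 alone 15 of 17 members were fitted lower in cKO, and their median log2 fold change was -0.14. Over all miRNAs tested there 51.0% were lower, with a median of -0.0034. In numbers 4 to 6 alone 8 of 17 members were lower, with a median of 0.011. Over all miRNAs tested there 48.8% were lower, with a median of 0.012. The difference between the sets was not tested.

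Within numbers 4 to 6 miR-136 had 1718 to 1827 CPM in cKO, against 2322 to 2655 CPM in Control. Its log2 fold change there was -0.46 ± 0.086 (n = 3 each, edgeR adjusted p = 0.13). Its groups did not overlap there. Groups did not overlap for 4 of 17 members within numbers 4 to 6, and for 21.5% of all tested miRNAs. Within numbers 1 to 3 miR-136 overlapped between the groups (-0.17 ± 0.27). miR-337-5p did not overlap between the groups in the other set. It had 2.59 to 3.52 CPM in cKO 1 to 3, against 5.12 to 6.29 CPM in Control 1 to 3, a log2 fold change of -0.93 ± 0.29 (edgeR adjusted p = 0.998, n = 3 each), and 2.83 to 4.00 CPM in cKO 4 to 6, against 3.16 to 3.70 CPM in Control 4 to 6, a log2 fold change of 0.054 ± 0.20. It was the 1 of 17 members whose groups did not overlap within numbers 1 to 3, against 4.86% of all tested miRNAs. In both sets the count of members lies near the share of all tested miRNAs, so no result about the members is drawn.

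**Figure D3:**
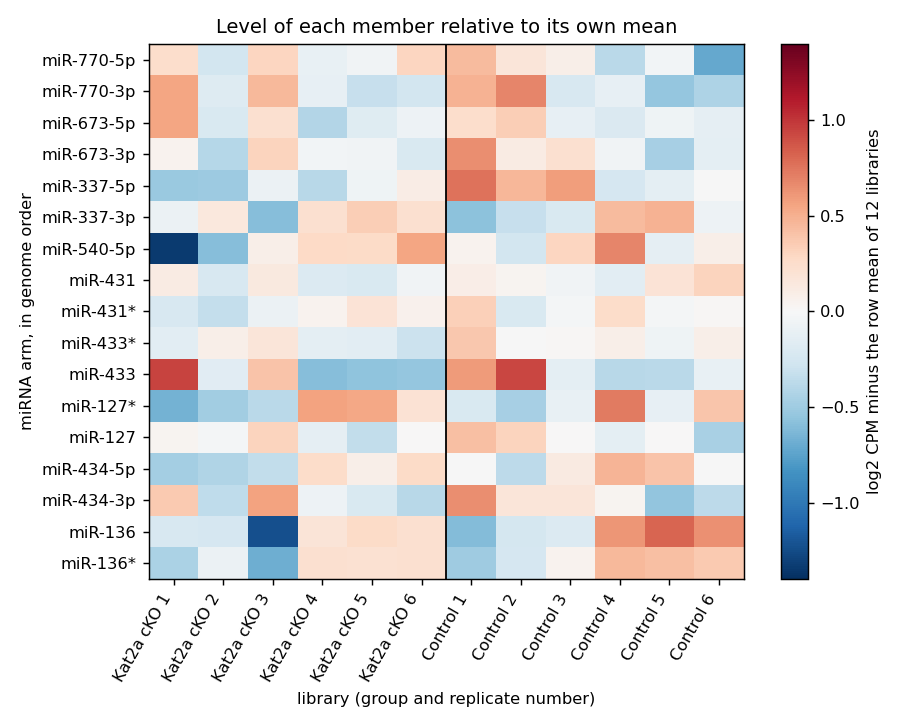
Log2 CPM of each member minus its mean over the 12 libraries, 1 column per library, cKO left of Control. Both miR-136 rows are higher in numbers 4 to 6 of both groups, miR-433 is highest in cKO 1 and Control 2, and cKO 1 has the lowest value of miR-540-5p, 1.73 CPM.

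The ratio of the arms of a hairpin within a library does not depend on how libraries are scaled. For 8 hairpins both arms had a row. The 3p arm had more reads in 12 of 12 libraries for miR-127, miR-434, miR-433, miR-136, miR-337 and miR-431. In that order the geometric mean ratios were 594-fold, 17.6-fold, 18.7-fold, 3.77-fold, 4.36-fold and 1.38-fold. The 5p arm had more reads in 12 of 12 libraries for miR-673 (3.30-fold). miR-770 gave nearly equal reads for its arms, with the 5p arm higher in 7 libraries and the 3p arm in 5.

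None of the 8 arm ratios differed between cKO and Control past the test (0 with an adjusted p under 0.05 and 0 with an unadjusted p under 0.05, exact two-sided permutation tests adjusted over 151 hairpins, of which 0% passed adjusted and 1.32% unadjusted). The log2 ratio of 5p to 3p for miR-337 was -2.78, -2.52 and -1.61 in cKO libraries (lowest, median, highest), against -2.81, -1.71 and -0.80 in Control libraries, a difference of -0.55 (exact permutation p = 0.18, adjusted p = 0.98, n = 6 each). The Control libraries spread over the whole cKO range and beyond it. Within numbers 1 to 3 that difference was -1.13 (-2.78 to -1.61 in cKO, against -1.35 to -0.80 in Control). Within numbers 4 to 6 it was 0.031. With 3 against 3 the smallest exact p is 0.1. For miR-136 the ratio was -2.46, -1.94 and -1.69 in cKO libraries, against -2.15, -1.84 and -1.53 in Control libraries, a difference of -0.15 (exact permutation p = 0.32, n = 6 each). Within numbers 4 to 6 that difference was -0.27 (-1.95 to -1.86 in cKO, against -1.75 to -1.53 in Control). Within numbers 1 to 3 it was -0.037. These ranges within number sets were picked after the values were seen. The share of the 151 hairpins without overlap within a set is not given, so no result about these hairpins is drawn. Over all 12 libraries the other 6 differences lay between -0.17 and 0.10. The spread between libraries was wide for the least balanced hairpin, miR-127, whose log2 ratio ran from -9.91 to -8.33 in cKO libraries and from -9.99 to -8.35 in Control libraries.

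**Figure D4:**
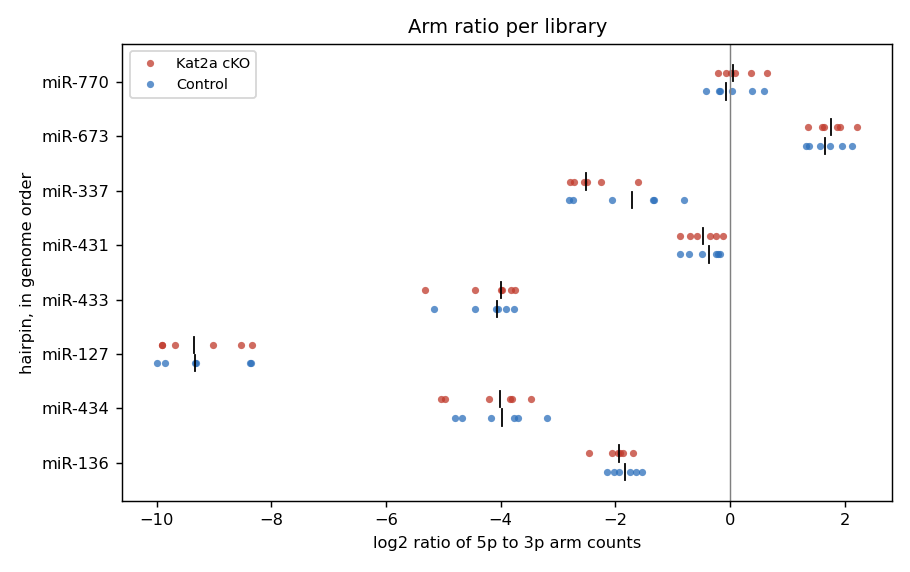
Log2 ratio of 5p to 3p counts (0.5 added to each) for the 8 hairpins with both arms counted, 1 point per library, Kat2a cKO above Control, bars at group medians. miR-673 lies right of 0 and miR-770 around 0, and the other 6 lie left of it; groups overlap in each row.

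The table of all RNAs holds 6 libraries of each group counted over RefSeq transcripts and has a row for each of the 10 hairpins, miR-665 included. Its columns give the group of a library but not its number, so libraries carry letters here. These are small RNA libraries cut for size, so the rows of Rtl1 and Meg3 count short reads. They do not measure levels of the whole transcripts. No hairpin row and no row of Rtl1 or Meg3 passed the test (edgeR, 0 of 12 tested rows, smallest adjusted p = 0.9999, and 0 of 12 in DESeq2), as none of the 1846 tested rows did (0%; DESeq2 called 10 rows, none of them these). At an unadjusted p under 0.05 there were 2 of these rows, Mir136 and Mir665, against 4.39% of all tested rows. In DESeq2 Mir337 was also under it. Of the hairpin rows, 9 passed the count filter; Mir433, with 0 to 51 counts, did not. Lower fitted levels were seen in 52.4% of all tested rows.

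Mir665, the hairpin without a row in the miRNA table, had 17.6, 25.1 and 40.0 CPM in cKO libraries, against 26.6, 47.0 and 62.8 CPM in Control libraries, a log2 fold change of -0.75 ± 0.31 (edgeR, unadjusted p = 0.034, adjusted p = 0.9999). All 6 cKO libraries lay below the Control mean, and the groups overlapped. Its neighbours Mir337 and Mir540 had log2 fold changes of -0.20 ± 0.13 and -0.26 ± 0.18. Mir337 had 621, 664 and 772 CPM in cKO libraries, against 723, 788 and 864 CPM in Control libraries, with 6 of 6 cKO libraries below the Control mean. Mir673 and Mir770 had -0.16 ± 0.19 and -0.58 ± 0.54.

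Mir136 had 177, 260.4 and 487 CPM in cKO libraries, against 226, 662 and 1114 CPM in Control libraries, a log2 fold change of -1.19 ± 0.41 (edgeR, unadjusted p = 0.013, adjusted p = 0.9999). All 6 cKO libraries lay below the Control mean; 3 Control libraries lay within the cKO range. Mir136, Mir431, Mir433, Mir127 and Mir434 overlap Rtl1 on the other strand, and whether counting used strand, or how reads matching both rows were assigned, is not given in the sources used here. Reads of each pair may not be told apart. Mir127 ran from 2155 to 139503 CPM in cKO libraries and from 1412 to 128056 CPM in Control libraries, and Rtl1 from 18356 to 193108 CPM in cKO libraries and from 28614 to 169467 CPM in Control libraries. The rows were high in opposite libraries. In cKO libraries a, b, d and e and Control library e, Mir127 had 107047 to 139503 CPM and Rtl1 18356 to 28614 CPM, while in the other libraries Mir127 had 1412 to 3634 CPM and Rtl1 129729 to 193108 CPM. What set this was not tested. Rtl1 had a log2 fold change of -0.85 ± 0.66, Mir431 0.75 ± 0.98 and Mir434 0.23 ± 1.04. That of Mir127 was 1.74 ± 1.34, and 5.00 without Control library e, which held most of the Control reads of that row.

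The summed level of Rtl1 and the 10 hairpin rows was steadier. It was 124752, 151774 and 204163 CPM in cKO libraries, against 130733, 166924 and 174700 CPM in Control libraries. The log2 fold change was -0.040 ± 0.18. Its coefficient of variation over the 12 libraries was 14.0%, against 68.4% for Rtl1 and 119% for Mir127. The sum also holds hairpin rows outside Rtl1, and no p is given for it, since its rows were chosen. Of Meg3, the host of miR-770, the 2 tested transcript rows had log2 fold changes of 0.15 ± 0.35 and 0.11 ± 0.35. They held 44 to 129 and 22 to 158 counts per library.

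**Figure D5:**
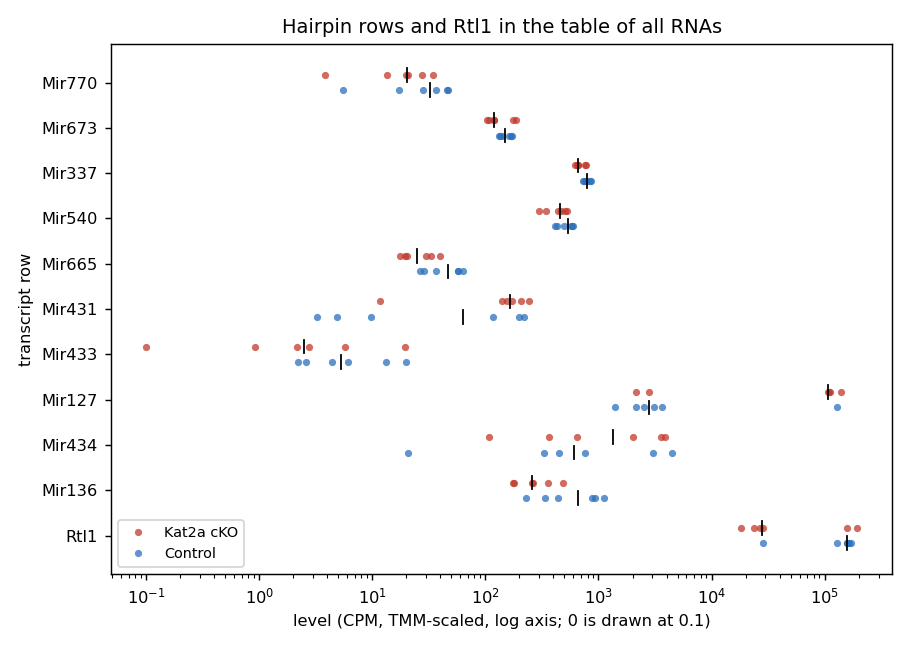
Level of the 10 hairpin rows in genome order and of Rtl1 in the table of all RNAs, in CPM on a log axis, 1 point per library, Kat2a cKO above Control, bars at group medians. Mir127 falls into values from 1412 to 3634 CPM and values from 107047 to 139503 CPM, while Mir337 stays between 621 and 864 CPM.

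Of the tested miRNAs outside the members, the 5 whose centred log2 CPM lay closest to the members' mean over the 12 libraries were miR-30d, miR-872*, miR-181a, miR-666-5p and miR-191*, with root mean square differences of 0.13, 0.13, 0.13, 0.14 and 0.14 on the log2 scale. The median over the 477 miRNAs compared was 0.39. Of these 5, miR-666-5p belongs to the other Dlk1-Dio3 miRNAs, which made up 12.6% of those compared. The members' mean deviated from its own average by -0.25 in the lowest library, cKO 2, and by 0.19 in the highest, Control 1. Since this mean varied little, the measure favours miRNAs that vary little between libraries. Whether the 5 miRNAs share a pattern with the members was not tested.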

How the data were processed

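Small RNA was sequenced from dissected CA1 tissue. Illumina small RNA kits and a gel cut for size were used, per the labels' protocols, on DNase-treated RNA. The submitters' processing notes name CASAVA; aligner, annotation and build are not given in the sources used here. The authors deposited 3 tables of raw read counts. Named rows of the miRNA table all average at least 10 counts in Control; a nameless row (1, with 0.00015% of reads) was dropped. Rows of the table of all RNAs were matched to RefSeq symbols (GRCm38.p6) by accession, ignoring versions: 26081 of 35230 matched.

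Counts were tested with edgeR 4.0.16 in R 4.3.3 (filterByExpr, TMM, quasi-likelihood fit on group over the whole table, Benjamini-Hochberg adjustment over all rows tested, threshold 0.05). SEs and 95% intervals come from that fit. Arm ratios (0.5 added to each count) were compared by exact two-sided permutation over 924 assignments, of which the smallest possible p is 0.0022. The edgeR fits and the arm ratio test were tested on simulated counts. The members and lists were chosen with earlier results of these data known. Named in full were the most abundant arm of each gene, rows with an unadjusted p under 0.05 and host transcripts. The 5 miRNAs closest to the members' mean were named too. Both miR-136 arms, miR-337-5p and the arm ratios of miR-136 and miR-337 within number sets were singled out after their values were seen. Alternatives were RLE factors, DESeq2 1.42.0, 2 other filters, 2 other scalings, the replicate number as a block, number sets as a covariate or alone, and each library left out. PCR reads carry no molecular identifiers.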

Additional observations from a re-analysis of the deposited data

Results flagged for a closer look

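In 82 groups of 6 values, 5 had a library far from the others (gap to the nearest library over the range of the group), against 4.10 that chance would give at 1 in 20. In the miRNA table miR-433* was highest in Control 1, at 61.7 CPM with the next at 50.3 CPM (gap 0.70). In the table of all RNAs the row Mir433 was highest in cKO library b, at 19.5 CPM with the next at 5.75 CPM (gap 0.71). In Control library e, Mir127 had 128056 CPM and the next highest Control library 3634 CPM (gap 0.98). The same library was lowest for Rtl1, at 28614 CPM with the next at 129729 CPM (gap 0.72). It was also highest for the third Meg3 transcript row, at 16.3 CPM with the next at 1.81 CPM (gap 0.89).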

How the results depend on the processing

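No member passed an adjusted p of 0.05 under any alternative in the miRNA table, nor any hairpin, Rtl1 or Meg3 row in the table of all RNAs, nor any arm ratio (0 each; for arm ratios within a set of numbers, 3 against 3 cannot give an exact p under 0.1). Over all miRNAs edgeR called 1, DESeq2 2, and edgeR 0 with the replicate block, with scaling by the miRNA and misc RNA total, within either set of numbers, and without any 1 library; over all RNAs edgeR called 0 (0 to 2 without 1 library) and DESeq2 10. The count of members lower in cKO was 14 with the replicate block too (median -0.11), 16 with scaling by the miRNA and misc RNA total (median -0.17, where the median of all miRNAs moved to -0.051 and 58.9% were lower), and 8 with a median of 0.011 in numbers 4 to 6 alone; without 1 library it was 11 to 15, with medians of -0.15 to -0.056, the nearest to 0 without Control 1 (-0.056) and cKO 2 (-0.062). Same-numbered libraries deviated with correlations of -0.15 to 0.67, and 1 of 6 cKO libraries correlated best with its own number, so the numbers were not taken to pair libraries. The difference in the members' share of counts was -0.34 percentage points, and -1.18 to 0.42 without 1 library.

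Single members changed direction in 13 of 170 values under the other alternatives and 24 of 204 without 1 library; the cause was not tested. In numbers 4 to 6 alone the log2 fold change was 0.034 for miR-127, 0.057 for miR-127*, -0.038 for miR-337-3p, 0.054 for miR-337-5p, 0.011 for miR-431*, 0.045 for miR-434-3p, 0.094 for miR-540-5p and 0.095 for miR-673-3p. In numbers 1 to 3 alone it was 0.038 for miR-673-5p, -0.068 for miR-770-3p and -0.13 for miR-770-5p. With scaling by the miRNA and misc RNA total it was -0.00039 for miR-337-3p and -0.013 for miR-770-3p. Without 1 library it ran from -0.11 to 0.18 for miR-770-3p, -0.14 to 0.063 for miR-673-5p, -0.035 to 0.16 for miR-337-3p, -0.26 to 0.0098 for miR-540-5p, -0.42 to 0.067 for miR-433, -0.19 to 0.092 for miR-127*, -0.15 to 0.020 for miR-127 and -0.18 to 0.11 for miR-434-3p. It kept its sign but moved by over 1.5 times for miR-770-5p (0.0083 to 0.23), miR-673-3p (-0.25 to -0.0010), miR-136 (-0.48 to -0.21), miR-136* (-0.29 to -0.089), miR-431* (-0.18 to -0.056), miR-433* (-0.22 to -0.095) and miR-434-5p (-0.28 to -0.13).

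The arm ratio difference was 0.065 for miR-127, 0.031 for miR-337 and -0.20 for miR-673 in numbers 4 to 6 alone, and 0.23 for miR-431, -0.018 for miR-433 and -0.093 for miR-770 in numbers 1 to 3 alone. Without 1 library it ran from -0.00055 to 0.21 for miR-770, -0.0030 to 0.18 for miR-673, -0.12 to 0.047 for miR-431, -0.17 to 0.24 for miR-433, -0.20 to 0.14 for miR-127, -0.32 to 0.00036 for miR-434, -0.74 to -0.34 for miR-337 and -0.22 to -0.061 for miR-136. Without 1 library the log2 fold change ran from -0.11 to 0.95 for the row Mir434 and from -0.056 to 0.42 and -0.093 to 0.28 for the tested Meg3 rows. An unadjusted p under 0.05 was found for miR-337-5p with scaling by the miRNA and misc RNA total and in numbers 1 to 3 alone. The same held for miR-337-5p without cKO 6, Control 4 or Control 5, and for miR-136 and miR-433 in numbers 4 to 6 alone. Within numbers 4 to 6 the edgeR adjusted p was 0.13 for miR-136 and 0.33 for miR-433. The share of all tested miRNAs under 0.05 in these settings is not given, so no result about the members is drawn. The unadjusted p of Mir665 was above 0.05 with no filter and without cKO library a, b, c or f or Control library d, e or f, and that of Mir127 below it without Control library e. That of Mir337 was below it in DESeq2. Reads per library limit miR-337-5p and miR-540-5p most.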

Other observations

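Mir337 and Mir540, hairpins between Meg3 and Rtl1, had more reads in the table of all RNAs than their counted arms had in the miRNA table. Mir337 had 11014 reads over the cKO libraries and 10005 over the Control libraries, while its arms together had 865 reads in cKO and 743 in Control, ratios of 12.7 in cKO and 13.5 in Control. Mir540 had 6995 reads in cKO and 6690 in Control, while the counted arm miR-540-5p had 194 in cKO and 173 in Control, ratios of 36.1 in cKO and 38.7 in Control. Its 3p arm has no row in the miRNA table used here. Mir665 had 448 reads in cKO and 605 in Control.

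For the hairpins inside the Rtl1 coding region, and for Mir673 and Mir770, the order was the opposite one. Mir433 had 89 reads in cKO and 93 in Control, against 32875 arm reads in cKO and 31666 in Control. Mir434 and Mir136 held ratios of 0.0153 and 0.0164 in cKO, and 0.0175 and 0.0296 in Control. Mir127 and Mir431 held higher ratios, 0.219 and 0.329 in cKO, and 0.0689 and 0.210 in Control. The reads of Mir127 lay mostly in cKO libraries a, b, d and e and Control library e, where Rtl1 was low. Mir673, just after the end of Meg3, had ratios of 0.123 in cKO and 0.131 in Control. Those of Mir770, inside Meg3, were 0.0932 in cKO and 0.144 in Control. The tables differ in total counts, and what set these ratios was not tested. Reads of the hairpins inside Rtl1 may also have been counted in the Rtl1 row, so their ratios were not compared between the groups.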
